A study of Mus musculus with 6 samples.

Results

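The genes described here are those with a symbol made of Gpr and a number, the placeholder given to G-protein-coupled receptors that had no known ligand when they were named. All rows of the expression table with such a symbol were taken, except those of Gpr17, Gpr37 and Gpr177, of which 2 were present. The selection gave 93 genes of the 43383 rows. RNA-seq had been run on cells sorted for GFP by flow cytometry. The mice were 4-week-old males of the genotype Aldh1l1-eGFP, and the tissue was the somatosensory area of the neocortex. Upper-layer astrocytes (ULAs) came from layers II–IV and deep-layer astrocytes (DLAs) from layers V and VI, with 3 libraries per layer, 1 of each layer from each of 3 brains. The dissection kept neither layer I nor the tissue bordering the cortex (meninges and corpus callosum), and cells near the boundary of layers IV and V are only partly represented. Both groups carried the same transgene, and no treatment is given for either. Any cell in which the Aldh1l1 transgene was active could enter the gate, so the libraries can hold RNA of other cell types.

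G-protein-coupled receptors pass the binding of an outside ligand to a G protein inside the cell, whose alpha subunit then acts on enzymes such as adenylyl cyclase while the beta and gamma subunits act on channels. Receptor kinases and arrestins end the signal at the receptor, and RGS proteins end it at the alpha subunit. Astrocytes use such receptors to sense transmitters, lipids, matrix proteins and protons released by their neighbours, and orphan receptors among them have been of interest because their ligands, and so their inputs, were unknown. Adhesion receptors, one class of the family, carry long extracellular parts that bind matrix or neighbouring cells.

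The label of orphan receptors held for only some of the 93 genes. By general knowledge, 44 were rhodopsin-class orphans, 3 were orphans of class C and 16 were adhesion receptors, while 15 have since had a lipid, metabolite, peptide or ion ligand assigned and 4 sense protons. Another 9 are multipass membrane proteins that carry a Gpr symbol without belonging to the receptor classes, Gpr37l1 stood alone as a receptor linked to prosaposin, and Gpr31b was left unclassified. All 93 symbols were found in RefSeq's gene table, where 20 now go by another symbol, such as Adgrg1 for Gpr56 and Gper1 for Gpr30.

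Levels are given in RPKM, reads scaled to the length of the mRNA in kilobases and to the mapped reads of the library in M (1e6), which allows genes of different length to be compared. The libraries held 24.4 to 26.7 M reads in ULAs and 19.7 to 29.6 M reads in DLAs. The 8 astrocyte markers, among them Aldh1l1, Slc1a2 and Aqp4, summed to 11153.3–12051.2 RPKM in ULAs and 10495.8–11248.8 RPKM in DLAs. Markers of other cells were also read. The 9 neuronal markers summed to 5.23–7.86 RPKM over the 6 libraries, the 7 endothelial markers to 0.38–2.63 RPKM and the 8 microglial markers to 9.28–15.7 RPKM. The 8 oligodendrocyte markers summed to 86.6–177.7 RPKM in ULAs and 176.3–278.7 RPKM in DLAs. All 7 tested were higher in DLAs, 6 of them at an adjusted p under 0.05 by limma. The 5 markers of oligodendrocyte precursors summed to 85.3–96.8 RPKM in ULAs and 97.1–133.9 RPKM in DLAs. Most of that sum was Olig1, with a mean of 96.8 RPKM over the 6 libraries. Olig2 averaged 8.23 RPKM, and Cspg4, Sox10 and Pdgfra averaged 0.462, 0.237 and 0.0183 RPKM. The 5 markers of meningeal fibroblasts summed to 3.11–4.1 RPKM in ULAs and 4.98–6.29 RPKM in DLAs, and no marker of either list was called. The 3 blood cell markers in the table summed to 0.81–1.07 RPKM in ULAs and 4.7–32.6 RPKM in DLAs, and 2 of them, the globin genes Hbb-b1 and Hbb-b2, were called higher in DLAs (limma, adjusted p = 0.0132 and 0.0128) and were listed at 0 in all 3 ULA libraries.

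One receptor dominated the family. Gpr37l1, an astrocyte receptor for which prosaposin has been reported as a ligand, made up 88.5% of the summed RPKM of the 93 genes and stood 24.9-fold above the next, Gpr56. By mean RPKM it ranked 8 of all 43383 rows. Only 30 of the 93 genes (32.3%) reached a mean of 1 RPKM over the 6 libraries, the level required for testing, which is also the share of all rows that did so (32.3%). Of these, 10 were at 10 RPKM or more, 3 between 5 and 10 RPKM and 17 between 1 and 5 RPKM. The other 63 comprised 50 with reads in at least 1 library and 13 listed at 0 in all 6 libraries. At the edge of the filter, Gpr34 and Gpr82 passed with means of 1.09 RPKM, and Gpr171 stayed under it with 0.968 RPKM.

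**Figure D1:**
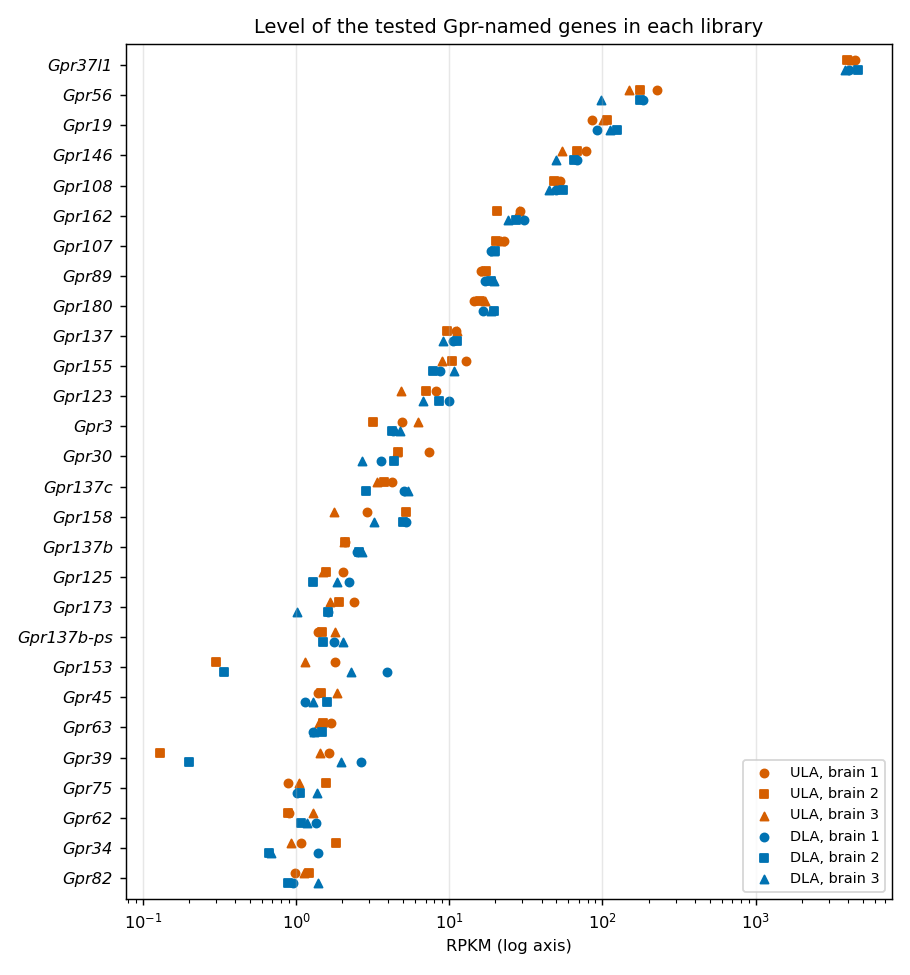
RPKM (log axis) of 28 of the 30 Gpr-named genes that reached a mean of 1 RPKM, with 1 point for each of the 3 ULA and 3 DLA libraries. Gpr37l1 lies alone at 3826.27 to 4630.76 RPKM, and the points of both layers lie among each other for nearly every gene.

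Levels were compared between the layers with limma on log2(RPKM + 1), with brain and layer as terms, and p-values were adjusted by Benjamini-Hochberg over all 13999 rows tested. A positive log2 fold change stands for a higher level in ULAs, and the scale understates changes of genes near 1 RPKM. None of the 30 tested Gpr genes passed an adjusted p of 0.05, where 1.63% of all tested rows did (0.714% higher in ULAs and 0.914% higher in DLAs). The lowest adjusted p among them was 0.176, for Gpr30. At an unadjusted p under 0.05 there were 5 of 30 (16.7%), against 16.4% of all rows. Gpr30 and Gpr56 were the 2 on the ULA side, which held 5.64% of all rows, and Gpr153, Gpr158 and Gpr123 the 3 on the DLA side, which held 10.8%. Both shares of the Gpr genes, called and unadjusted, were thus near or under those of the whole table. In sorted bulk samples, fewer cells expressing a gene and less of its RNA per cell cannot be told apart.

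The differences were bounded as follows. The median log2 fold change of the 30 genes was 0.02, beside −0.03 over all tested rows, and the median size irrespective of sign was 0.14 in both. The estimate lay within 0.5 of 0 for 29 of the 30 genes, as it did for 95.9% of all rows. With 0.1 in place of 1 added to the RPKM, the estimates were 0.61 for Gpr30, −0.53 for Gpr158 and −0.72 for Gpr153. The rest of the 19 Gpr genes recomputed in this way stayed within 0.5. On log2(RPKM + 1), the 95% interval lay within 1 log2 unit of 0 for all 30 tested genes and within 0.5 for 18. Its outermost bounds were −0.91 for Gpr153 and 0.88 for Gpr30. These bounds apply to that scale, which understates changes of genes near 1 RPKM. For Gpr153 the mean RPKM was 2.03-fold higher in DLAs. None of the 93 genes met, as recomputed here, the criteria stated with the study's layer lists (a mean above 5 RPKM in the higher layer, a mean ratio above 1.5 within brains and a paired p under 0.05), which 73 rows met for ULAs and 64 for DLAs (0.168% and 0.148% of all rows).

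**Figure D2:**
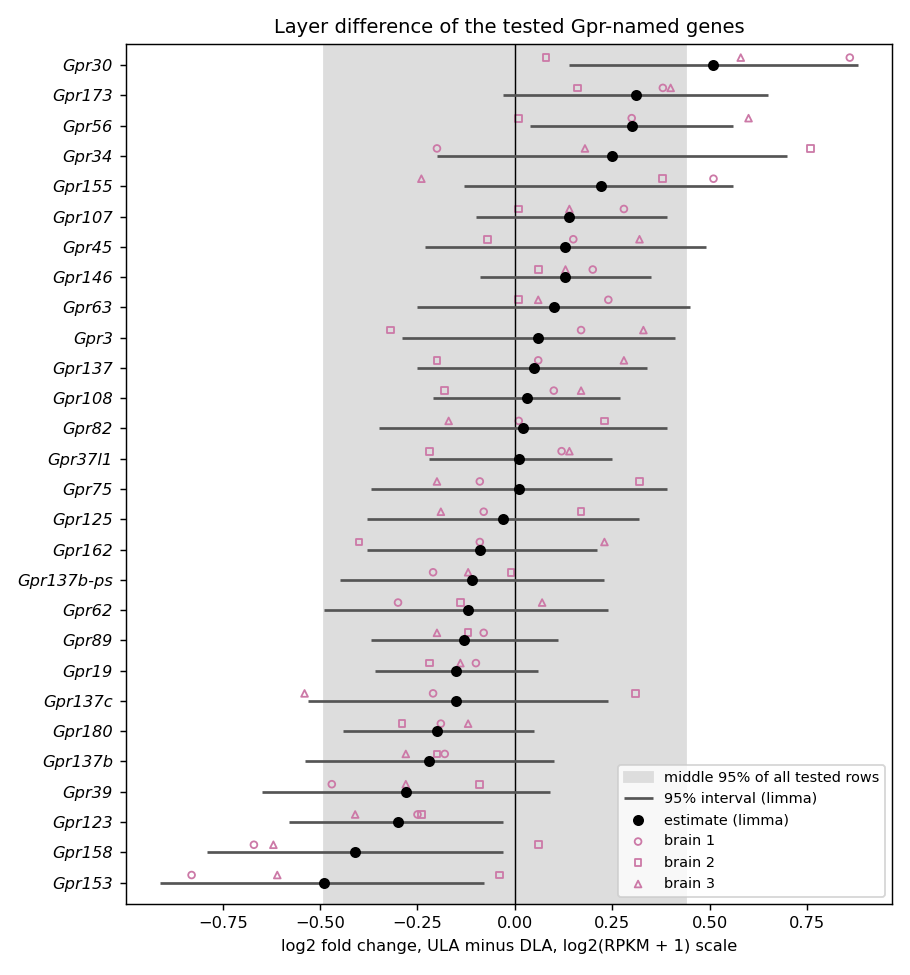
Log2 fold change of ULAs over DLAs, on log2(RPKM + 1), for 28 of the 30 tested Gpr genes (limma estimates with 95% intervals). Points are the 3 within-brain differences on the same scale, and the grey band holds the middle 95% of all 13999 tested rows. Gpr30, at 0.51, is the estimate farthest to the ULA side and Gpr153, at −0.49, the farthest to the DLA side.

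Gpr37l1 (chromosome 1, 137056827–137064258, minus strand, build mm9) measured 4429.82, 3973.12 and 4216.78 RPKM in the ULAs of brains 1 to 3 and 4069.61, 4630.76 and 3826.27 RPKM in the DLAs. The ULA values lay inside the range of the DLA values, and at 205084 to 254806 reads per library counting error was small beside the differences between brains. Means were 4206.6 ± 228.5 RPKM in ULAs and 4175.5 ± 412.6 RPKM in DLAs (SD, n = 3 in each layer, as for all means given here). The log2 fold change was 0.01 with a standard error (SE) of 0.11 and a 95% interval from −0.22 to 0.25 (limma, adjusted p = 0.965).

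Ligands reported for receptors of the family were also measured. Psap, which encodes the secreted and lysosomal protein prosaposin, was at 527.69, 517.96 and 515.97 RPKM in ULAs and at 375.05, 397.18 and 518.13 RPKM in DLAs. Brain 3 was the one in which both layers were alike, and the layer estimate of 0.29 (SE 0.11) did not pass (limma, adjusted p = 0.24). Prnp, the prion protein, whose amino-terminal part has been reported to activate Gpr126 on Schwann cells, was at 2627.1 ± 129.0 RPKM in ULAs and 2528.2 ± 235.9 RPKM in DLAs. Gpr126 itself (now Adgrg6) had a mean of 0.0733 RPKM.

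Among the 16 adhesion receptors, 3 were tested and only Gpr56 was abundant. Gpr56 (chromosome 8, 97501009–97538108, plus strand), a receptor for collagen III that is needed for the layering of the human cortex, measured 227.5, 176.71 and 149.02 RPKM in ULAs and 185.11, 175.1 and 98.2 RPKM in DLAs. The ULA value was the higher in each of the 3 brains, but brain 1 exceeded brain 3 in both layers and the layers overlapped. The log2 fold change was 0.30 (SE 0.12, 95% interval 0.04 to 0.56), with an adjusted p of 0.246 by limma, and the estimate was 0.15 without brain 3 and 0.45 without brain 2. Col3a1, which encodes the collagen, was listed at 0 in all 6 libraries.

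Gpr123 (Adgra1; chromosome 7, 147020073–147063987, plus strand), an adhesion receptor found mainly in the nervous system, measured 8.19, 7.07 and 4.82 RPKM in ULAs and 9.95, 8.56 and 6.71 RPKM in DLAs. Here the DLA value was the higher in each brain, again with overlapping layers and with brain 3 lowest in both. Its log2 fold change was −0.30 (SE 0.12, 95% interval −0.58 to −0.03; limma, adjusted p = 0.263). Gpr125 (Adgra3), of the same adhesion subgroup, averaged 1.74 RPKM. The adhesion receptors below the filter reached at most 0.488 RPKM and included Gpr124, a receptor for brain vessel growth that acts in endothelial cells, at 0.14–0.3 RPKM in the 6 libraries.

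The rhodopsin-class orphans held 11 tested genes, 26 with some reads below the filter and 7 at 0. Gpr19 (chromosome 6, 134819111–134847943, minus strand) was the most abundant, at 85.22, 107.0 and 101.45 RPKM in ULAs and 91.63, 124.43 and 111.62 RPKM in DLAs. The DLA value was higher in all 3 brains, by less than the brains differed (log2 fold change −0.15, SE 0.09; limma, adjusted p = 0.451). Gpr146 (chromosome 5, 139856621–139872368, plus strand), studied in liver for its effect on plasma cholesterol, had the opposite order in all 3 brains, with 78.18, 68.0 and 54.48 RPKM in ULAs and 67.8, 65.3 and 49.74 RPKM in DLAs. Its estimate was 0.13 (SE 0.10; limma, adjusted p = 0.539). Gpr162 was at 25.9 ± 4.64 RPKM in ULAs and 27.4 ± 3.26 RPKM in DLAs, and Gpr3, which raises cyclic AMP without a ligand, averaged 4.61 RPKM.

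The 15 receptors with a lipid, metabolite, peptide or ion ligand assigned, a class that leaves out Gpr37l1 and the adhesion receptors, had means of at most 4.52 RPKM. Of these, 3 were tested, and 12 were below the filter, at means of up to 0.685 RPKM (Gpr143, a receptor for L-DOPA in pigment cells). Gpr30 (Gper1; chromosome 5, 139899133–139903754, plus strand), the membrane receptor for estrogen, measured 7.34, 4.63 and 4.55 RPKM in ULAs and 3.58, 4.33 and 2.71 RPKM in DLAs. The 3 ULA values all lay above the 3 DLA values, narrowly so between the ULAs of brain 3 and the DLAs of brain 2. The within-brain differences of log2(RPKM + 1), ULAs minus DLAs, were 0.86, 0.08 and 0.58. The estimate of 0.51 (SE 0.17, 95% interval 0.14 to 0.88) was the highest of the 30, on 201 to 451 reads per library (limma, adjusted p = 0.176). Without brain 2, in which the layers were nearly equal, the adjusted p was 0.0567, the lowest any Gpr gene reached in any analysis, and over all alternatives that of Gpr30 ran from 0.0567 to 0.864.

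Gpr34, a receptor for lysophosphatidylserine known from microglia, measured 1.07, 1.82 and 0.92 RPKM in ULAs and 1.38, 0.66 and 0.69 RPKM in DLAs, and the layers overlapped (log2 fold change 0.25, SE 0.20; limma, adjusted p = 0.578). The 8 microglial markers summed to 14.3–15.7 RPKM in ULAs and 9.28–13.0 RPKM in DLAs, only P2ry12 of them reached the filter, and Cx3cr1 and Aif1 averaged 0.132 and 0.157 RPKM. The part of microglial RNA in the level of Gpr34 was not tested.

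The class C orphans, relatives of the GABA and glutamate receptors, numbered 3, of which 2 were tested. Gpr158 (chromosome 2, 21289194–21752169, plus strand), which anchors the RGS7 complex at the membrane and for which glycine has been reported as a ligand, measured 2.89, 5.21 and 1.76 RPKM in ULAs and 5.21, 4.95 and 3.24 RPKM in DLAs. DLAs were higher in 2 of 3 brains and ULAs slightly so in brain 2. The estimate was −0.41 (SE 0.17, 95% interval −0.79 to −0.03; limma, adjusted p = 0.272). Rgs7 itself was far more abundant, at 171.7 ± 28.9 RPKM in ULAs and 140.7 ± 4.45 RPKM in DLAs (limma, log2 fold change 0.27, adjusted p = 0.287).

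All 9 multipass proteins outside the receptor classes passed the filter, with means of 1.65 to 50.3 RPKM. Gpr108, a protein of the Golgi apparatus, was at 50.8 ± 2.4 RPKM in ULAs and 49.8 ± 4.97 RPKM in DLAs, and the related Gpr107 was at 18.59–22.78 RPKM over the 6 libraries. Gpr89, a Golgi anion channel, was at 16.8 ± 0.523 RPKM in ULAs and 18.5 ± 1.19 RPKM in DLAs, and Gpr180 at 15.8 ± 1.33 and 18.3 ± 1.59 RPKM. DLAs were higher in all 3 brains for both, and neither passed (limma, adjusted p = 0.586 and 0.401). Gpr155, a cholesterol sensor of the lysosome, was at 10.7 ± 1.92 RPKM in ULAs and 9.07 ± 1.53 RPKM in DLAs. Gpr137, a lysosomal protein, was at 9.13–11.3 RPKM over the 6 libraries, with 18.7% of its exonic bases shared with Bad on the opposite strand. Over the 9 the estimates ran from −0.22 to 0.22, with 4 positive and 5 negative. The highest, that of Gpr155, was 0.07 without brain 1 and 0.44 without brain 3.

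Gpr137b (chromosome 13, 13449888–13485891, minus strand), another lysosomal member of that family, varied little within a layer. It measured 2.09, 2.09 and 2.04 RPKM in ULAs and 2.5, 2.56 and 2.68 RPKM in DLAs, so that DLAs were higher in each brain with no overlap. The log2 fold change was −0.22 (SE 0.14; limma, adjusted p = 0.481), on 150 to 237 reads per library. The related row Gpr137b-ps may share reads with it, and measured 1.55 ± 0.208 RPKM in ULAs and 1.76 ± 0.26 RPKM in DLAs.

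Of the 30 tested Gpr genes, 5 (16.7%) had values that did not overlap between the layers, beside 15.9% of all tested rows. ULAs lay above DLAs for 4 (13.3%; 6.59% of all rows), among them Gpr30, Gpr173 and Gpr107, and DLAs lay above for 1 (3.33%; 9.27% of all rows), Gpr137b. Gpr173, a conserved brain receptor of the rhodopsin class, measured 2.4, 1.91 and 1.66 RPKM in ULAs and 1.62, 1.61 and 1.02 RPKM in DLAs (log2 fold change 0.31, SE 0.15; limma, adjusted p = 0.349). Gpr107 measured 22.78, 20.04 and 21.73 RPKM in ULAs and 18.59, 19.87 and 19.62 RPKM in DLAs, so that the nearest values of the 2 layers differed by less than the spread within either (log2 fold change 0.14, SE 0.11; limma, adjusted p = 0.554). The direction was the same in all 3 brains for 15 of the 30 genes, and for 38.4% of all rows.

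**Figure D3:**
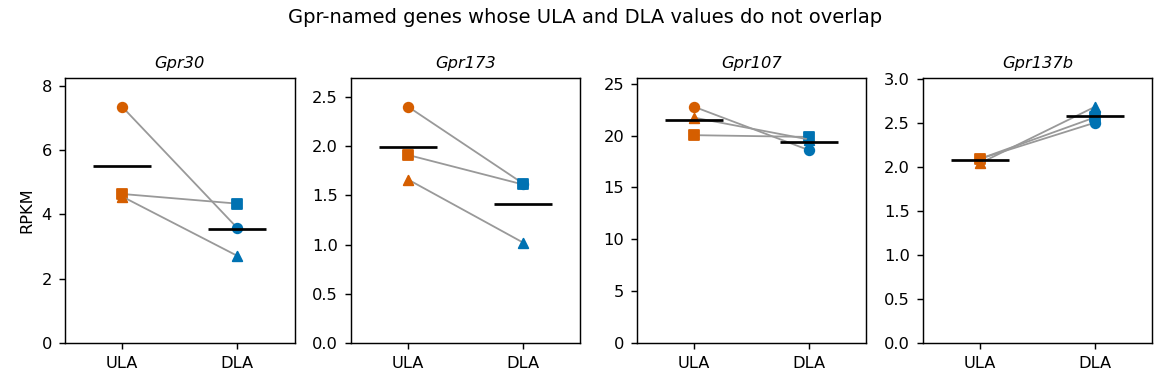
RPKM of Gpr30, Gpr173, Gpr107 and Gpr137b in each brain, with grey lines joining the ULA and DLA library of 1 brain (circles, brain 1; squares, brain 2; triangles, brain 3) and black bars at the layer means. Gpr137b shows tight values, 2.04 to 2.09 RPKM in ULAs and 2.5 to 2.68 RPKM in DLAs, and none of the 4 passed an adjusted p of 0.05 by limma.

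For most of the tested genes the brains differed by more than the layers. For 22 of the 30 genes (73.3%) the range of the 3 brain means exceeded the layer difference, as for 71.4% of all rows. Gpr153 and Gpr39 stood out by a criterion set after their values had been seen, that both values of brain 2 be at least 3-fold under each of the other 4. Gpr153 (chromosome 4, 151648471–151659446, plus strand), a rhodopsin-class orphan related to Gpr162, measured 1.78, 0.3 and 1.15 RPKM in ULAs and 3.93, 0.34 and 2.28 RPKM in DLAs, with the other brains 7.14-fold over brain 2. Its layer estimate was −0.49 (limma, SE 0.19, 95% interval −0.91 to −0.08, adjusted p = 0.231). The within-brain differences of log2(RPKM + 1), ULAs minus DLAs, were −0.83, −0.04 and −0.61.

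Gpr39 (chromosome 1, 127573573–127770438, plus strand), a receptor activated by zinc, measured 1.64, 0.13 and 1.44 RPKM in ULAs and 2.65, 0.2 and 1.97 RPKM in DLAs. It was at 9 to 190 reads per library, with the other brains 11.7-fold over brain 2 (layer log2 fold change −0.28, SE 0.16; limma, adjusted p = 0.432). Its exons share 1202 bases with Lypd1 on the opposite strand (chromosome 1, 127768619–127808791), 44.7% of its mRNA, and the kit is not stated to keep strand, so that reads there cannot be assigned. Lypd1 measured 2.87, 0.15 and 2.34 RPKM in ULAs and 3.91, 0.29 and 3.12 RPKM in DLAs, with brain 2 low in the same way. By the same criterion 19 of all 13999 tested rows (0.136%) were low in brain 2.

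**Figure D4:**
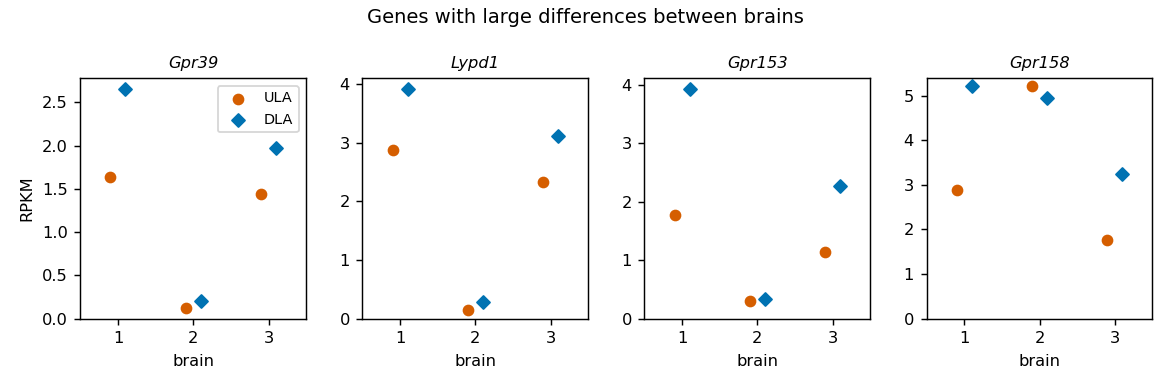
RPKM of Gpr39, Lypd1, Gpr153 and Gpr158 by brain and layer. The 2 libraries of brain 2 are at 0.13 and 0.2 RPKM for Gpr39 and at 0.3 and 0.34 RPKM for Gpr153, while Gpr158 in the same libraries is at 5.21 and 4.95 RPKM.

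The 13 genes listed at 0 in all 6 libraries included Gpr6, Gpr27, Gpr31b, Gpr33, Gpr77, Gpr81, Gpr83, Gpr101, Gpr110, Gpr132, Gpr139 and Gpr174. Gpr81 (Hcar1) is the lactate receptor. Values were cut to 2 decimals, which can hide at most 1 read of a gene, and 3 reads in a library would have given 0.0188 to 0.159 RPKM for these genes, so lower levels were not detectable. That limit need not hold for Gpr6, as all its 1092 exonic bases are shared with another row on the same strand, also at 0, and how shared reads were counted is not given in the sources used here. For Gpr81 that limit was 0.0309 to 0.0465 RPKM.

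The signalling partners of the receptors were read from lists of G-protein subunits, receptor kinases and arrestins, RGS proteins, adenylyl cyclases, other adhesion receptors and reported ligands. Of 85 such genes, 54 were tested, 2 were higher in ULAs and 3 in DLAs at an adjusted p under 0.05 (9.26%; of all tested rows, 0.714% were higher in ULAs and 0.914% in DLAs, 1.63% in all), and the median log2 fold change was −0.01. The partner lists were chosen with earlier results of these data known, so the share called in them is no measure of enrichment. Among alpha subunits 1 of 11 tested passed, and of beta and gamma subunits 1 of 10. RGS proteins gave 1 of 8, adenylyl cyclases 1 of 4, and ligands 1 of 6, while none of 7 receptor kinases and arrestins and none of 8 other adhesion receptors passed. Without brain 1, 1 partner gene passed as higher in ULAs and 0 in DLAs, and without the brain term in the model 0 passed in either direction.

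Gnas, the alpha subunit that stimulates adenylyl cyclase, measured 29.79, 13.38 and 34.13 RPKM in ULAs and 45.9, 22.12 and 48.93 RPKM in DLAs. DLAs were higher in each brain, and both values of brain 2 were the lowest of their layer (log2 fold change −0.60, SE 0.10; limma, adjusted p = 0.0198). Adcy8, an adenylyl cyclase activated by calcium, was at 0.89, 1.18 and 1.04 RPKM in ULAs and 2.61, 3.09 and 2.14 RPKM in DLAs, with no overlap (−0.82, SE 0.16; limma, adjusted p = 0.031). Gng11, a gamma subunit, was higher in DLAs in all 3 brains, at 4.73, 5.31 and 8.68 RPKM in ULAs and 7.51, 9.3 and 13.18 RPKM in DLAs (−0.61, SE 0.12; limma, adjusted p = 0.0396). On the ULA side stood Ptn, pleiotrophin, a secreted growth factor counted in the ligand list although its best known receptors are not Gpr genes, at 851.0 ± 36.2 RPKM in ULAs and 574.6 ± 54.5 RPKM in DLAs (0.57, SE 0.10; limma, adjusted p = 0.0163).

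Rgs5, which shortens signals of alpha subunits, was also higher in ULAs, at 1.98, 2.06 and 2.7 RPKM beside 1.01, 0.75 and 0.93 RPKM in DLAs (0.77, SE 0.16; limma, adjusted p = 0.0455). Rgs5 is also a marker of pericytes, and the 6 pericyte and smooth muscle markers, Rgs5 included, summed to 15.2–21.9 RPKM in ULAs and 11.2–17.9 RPKM in DLAs. Most of that sum was Pdgfrb, a growth factor receptor of pericytes, at 19.84, 12.76 and 12.21 RPKM in ULAs and 16.91, 14.71 and 10.31 RPKM in DLAs (0.08, SE 0.13; limma, adjusted p = 0.79). The part of such cells in the Rgs5 difference was not tested. Other abundant partners did not pass: Rgs20 averaged 199.5 RPKM, Gnai2 115.9 RPKM and Bai3, a brain adhesion receptor, 104.8 RPKM, with log2 fold changes of −0.01, −0.02 and 0.09 (limma, adjusted p = 0.984, 0.939 and 0.792). Oligodendrocyte markers moved with the DLA side, with their 7 tested members all at an unadjusted p under 0.05, as did the globin genes Hbb-b1 and Hbb-b2, and the part of either in the calls for Gnas, Gng11 and Adcy8 was not tested.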

How the data were processed

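RNA of GFP-positive cells from 3 brains was made into cDNA with a SMART-Seq v4 kit and Nextera XT libraries and sequenced as single 36-base reads. The authors deposited RPKM values per symbol, cut to 2 decimals. The submitters' processing notes name bcl2fastq 1.8.4, CASAVA 1.8.2 and build mm9, and the counting program and annotation are not given in the sources used here. Read numbers were recovered from the steps of the values in rows of up to 500 bases and were used for precision only. Depth was 24.4 to 26.7 M reads in ULAs and 19.7 to 29.6 M reads in DLAs, and limits based on reads cover counting error only.

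Rows with a mean of at least 1 RPKM (13999 of 43383) were tested on log2(RPKM + 1) by limma (version 3.58.1, under R 4.3.3). The linear model had a term for the brain and a term for the layer, variances were moderated by eBayes with its trend option, and 2-sided p-values were adjusted over all tested rows by Benjamini-Hochberg. The study reports a paired t-test, and the brain term makes the comparison here paired as well. The replicate number was taken as the brain: values of genes the study lists by brain were identical under the same number, and the deviations of same-numbered libraries from the mean of their layer correlated across genes (Pearson's r 0.422, 0.333 and 0.341), while those of other pairs gave −0.199 to −0.16. Python 3.11.15, pandas 2.3.3, numpy 2.4.6, scipy 1.17.1 and matplotlib 3.10.9 were used for the rest. Coordinates are those of the deposited table, with starts counted from 1.

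Genes are named with values if they reached 5 RPKM, passed in any analysis, were among the 5 largest estimates in either direction, or did not overlap between layers; the other genes given with values, among them those set beside a receptor as its ligand or partner, were picked once values had been seen, and the values of some Gpr genes are not reported here. The Gpr genes, their classes and the partner and marker lists were chosen with earlier results of these data known. Alternatives were no brain term, a pseudocount of 0.1, no filter, a filter at 5 RPKM, quantile normalization, a length correction, no trend, and leaving out each brain. With 3 libraries a layer and a term for the brain, p-values set the layer difference against its variation between these 3 brains. That variation was moderated by eBayes over all tested rows.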

Additional observations from a re-analysis of the deposited data

How the results depend on the processing

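No Gpr gene passed an adjusted p of 0.05 by limma in any of these analyses, and the number at an unadjusted p under 0.05 ran from 0 (without brain 1) to 6 (without brain 2, with quantile normalization or with no trend). Without the replicate block, that is, with the brains not paired, 23 of all rows were higher in ULAs and 18 in DLAs in place of 100 and 128, and 0 and 0 partner genes in place of 2 and 3, and 1 Gpr gene was at an unadjusted p under 0.05. With no filter on low values, 0 and 0 rows passed (2799 of 27963 at an unadjusted p under 0.05), and 0 and 0 partner genes. The length correction gave 65 and 78 rows and fitting no trend 65 and 79. Quantile normalization gave 138 rows higher in ULAs and 103 in DLAs, which turned the balance of the main analysis to the ULA side. The partner genes higher in ULAs numbered 1 with a pseudocount of 0.1, a filter at 5 RPKM, quantile normalization, the length correction or no trend, and those higher in DLAs numbered 1 with no trend. Leaving out 1 brain gave 96 to 431 rows higher in ULAs and 121 to 695 in DLAs, both highest without brain 3, and 1 to 7 partner genes higher in ULAs (7 without brain 3) and 0 to 3 in DLAs (0 without brain 1). The causes were not tested.

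Of 182 values recomputed for 19 named Gpr genes, 174 kept their direction and 8 changed it. Gpr37l1 turned to −0.07 with quantile normalization. Over the omissions of 1 brain, the log2 fold change ran from −0.05 to 0.13 for Gpr37l1, from −0.04 to 0.14 for Gpr108 (−0.0036 without brain 1), from −0.24 to 0.07 for Gpr162, from −0.07 to 0.17 for Gpr137 and from −0.01 to 0.47 for Gpr34. Of the genes at an unadjusted p under 0.05 it ran from 0.33 to 0.72 for Gpr30, from 0.15 to 0.45 for Gpr56, from −0.72 to −0.33 for Gpr153, from −0.65 to −0.28 for Gpr158 and from −0.33 to −0.25 for Gpr123. Genes near 1 RPKM rested on few reads, 9 to 190 per library for Gpr39.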

Other observations

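Abundant genes of other families were also low in brain 2 by the criterion given for Gpr39 and Gpr153, which was set after the values were seen. Fjx1, a secreted protein of the Golgi, measured 281.59, 48.43 and 280.2 RPKM in ULAs and 367.34, 58.01 and 331.54 RPKM in DLAs, and the other brains were 5.92-fold over brain 2. Lamp1, a lysosomal membrane protein, measured 272.33, 60.54 and 290.01 RPKM in ULAs and 482.82, 76.02 and 479.18 RPKM in DLAs, with both layers of brain 2 low and with a higher level in DLAs in each brain (log2 fold change −0.62; limma, adjusted p = 0.0252). Fzd9, a Wnt receptor of the frizzled family, was at 10.15 and 14.58 RPKM in brain 2 and at 44.28 to 83.97 RPKM in the other brains.

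Among the genes below the filter, Gpr21, a rhodopsin-class orphan, had the lowest adjusted p of the Gpr genes when every row was tested (limma, 0.431), with 0.21, 0.18 and 0.07 RPKM in ULAs and 0.03, 0.08 and 0.0 RPKM in DLAs.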
